A study of Sus scrofa with 12 samples.

Results

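The genes described here are markers of Kupffer cells, the resident macrophages of the liver, measured in whole liver of pigs divergent in residual feed intake (RFI). Of 10 marker genes chosen by name, 7 had at least 1 probe set with their symbol in the platform annotation: MRC1, CD163, MARCO, CD14, C1QA, C1QC and VSIG4. Together they held 12 of the 47845 probe sets of the porcine snowball array, and every one of these is given, without a filter on the standard deviation. CSF1R, CD68 and C1QB carried no probe set under their symbol and were not analysed here.

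Liver was taken at day 140 of life from 12 pigs, with 1 array per pig. By the labels, 6 pigs were of low RFI, a class that eats less than its growth and body composition predict, and 6 were of high RFI, which eats more. Each class held 3 females and 3 males. Per the study's methods, all were offspring of Large White × Landrace sows and Hylean Maxgro boars, ate the same pelleted finisher diet ad libitum, were given no named experimental treatment, and were slaughtered in the fed state. Siblings of the same sex were chosen across the classes, but the labels give neither litter nor sibling, so relatedness did not enter the tests. Values are log2 intensities, so that a difference of 1 is a doubling. A probe set's level does not give the amount of its transcript relative to that of another probe set. Where levels are set against the median or background probe sets, or called bright or dim, this ranks signal only.

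Kupffer cells line the sinusoids, where they take up particles, bacteria, dying red cells and haemoglobin from portal blood. They do so through scavenger receptors and complement receptors, and they are a main source of C1q, the protein that starts the classical complement pathway. MRC1 encodes the mannose receptor, which binds glycans with terminal mannose and in liver is also made by sinusoidal endothelial cells. CD163 takes up haemoglobin bound to haptoglobin, and MARCO is a scavenger receptor for bacteria and particles. CD14 hands lipopolysaccharide to the TLR4 and LY96 receptor complex, and is also made by hepatocytes. C1QA and C1QC encode chains of C1q, and VSIG4 is a complement receptor for fragments of C3 that is largely restricted to resident macrophages in mouse and human.

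Array medians lay between 3.48 and 3.53. On the first principal component, which held 14.8% of the variance, all 6 pigs labelled low RFI had scores of 8.73 to 37.5, against -40.0 to -7.77 in 5 of the 6 pigs labelled high RFI. Pig P317, a female labelled high RFI, had a score of 28.2 and thus lay among the pigs labelled low RFI. The class differences of the markers are therefore also given without this pig. P317 was picked from these same data, and leaving it out raised the calls among all probe sets from 15 to 1345. Calls made without it are thus no separate support for a class difference. Background probe sets are built to detect no transcript, and the 24 of them richest in G and C bases had a mean of 6.55 ± 0.08 in pigs labelled low RFI, against 6.69 ± 0.11 in pigs labelled high RFI (SD, n = 6 each), with 6.49 in P317. Among markers of the liver's cell types, hepatocyte genes were bright, with a mean over 9 genes of 12.1 to 12.4 in pigs labelled low RFI and 12.2 to 12.3 in pigs labelled high RFI. All 7 macrophage markers were above the median of all probe sets (3.5) through their brightest probe set. The 95th percentile of the 69 background probe sets was 7.48. CD163, with a mean of 6.74, and MARCO, with 4.26, thus lay within the range of background signal. So did other genes named below, among them TLR4 (5.56), PTPRC (5.60), RGS5 (6.37) and LYVE1 (6.88). Background probe sets with fewer G and C bases averaged 1.65 to 1.80 in each pig. A level under 7.48 therefore does not by itself show that a gene was undetected.

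MRC1 and CD163 had the widest gaps between the classes, and both were higher in the pigs labelled low RFI, by 1.46-fold and 1.60-fold. VSIG4 followed with 1.19-fold through its brightest probe set, while MARCO, CD14, C1QA and C1QC differed by at most 1.05-fold through theirs. Directions are those of the sample labels throughout. For MRC1, and for the TLR4 and SLC40A1 probe sets described below, the direction is the reverse of that in the study. The fold is of the same size in both (1.46, 1.40 and 1.37). Whether the labels or the signs in the study are turned could not be settled here. That doubt holds for every class direction given. None of the 12 probe sets was called at the study's threshold of q under 0.30 when all probe sets were tested by limma (0 of 12, against 0.0314% of all probe sets). The study, which tested after its own filter on SD, did list the MRC1, TLR4 and SLC40A1 probe sets just named as altered at that threshold. At an unadjusted p under 0.05, 2 of 12 passed, both higher in pigs labelled low RFI, against 7.29% of all probe sets in either direction. In no probe set did the classes separate fully (0 of 12, against 0.339% of all probe sets). As whole liver was measured, more cells of a type and more RNA per cell cannot be told apart.

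**Figure D1:**
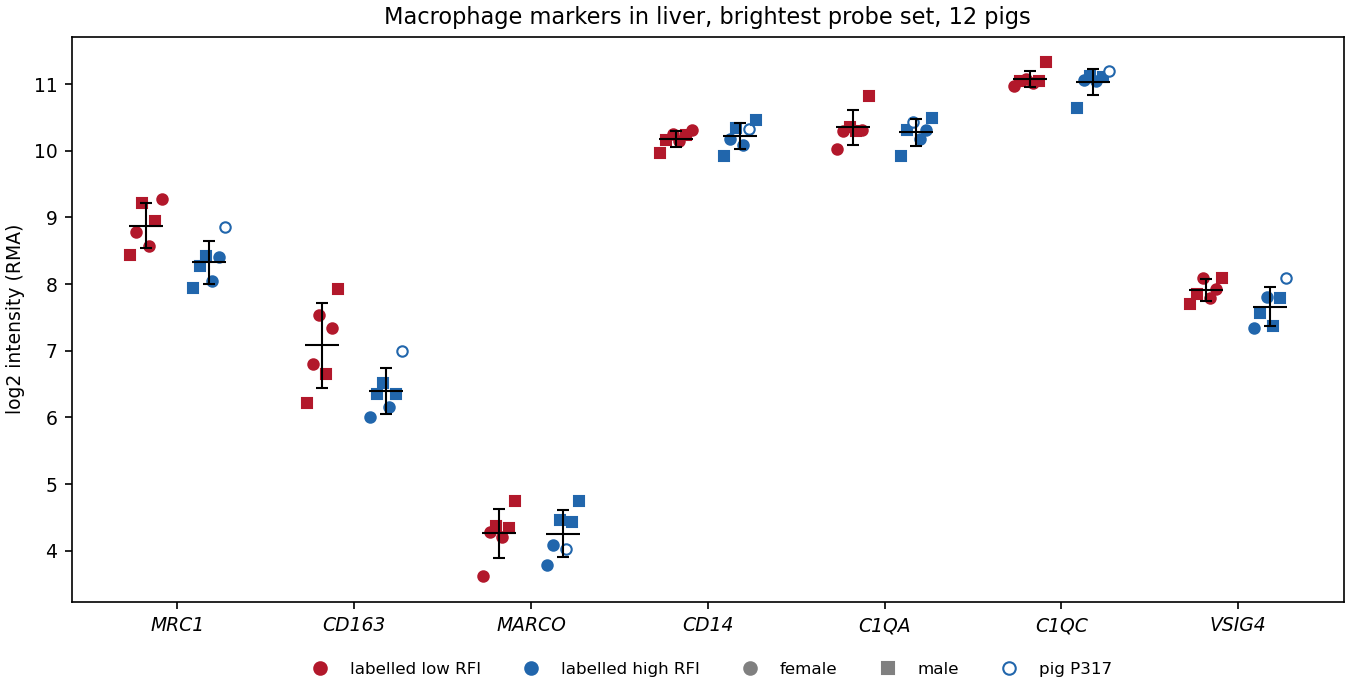
Log2 intensity of the 7 macrophage markers through their brightest probe set, with 1 point per pig, circles for females and squares for males. Pigs labelled low RFI (red) stand left of pigs labelled high RFI (blue), bars give the mean ± SD of 6 pigs, and the open circle is P317. In MRC1 and CD163 the red points lie mostly above the blue ones, with P317 the highest of the blue points, while the classes overlap throughout in MARCO, CD14, C1QA and C1QC.

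For MRC1, the brightest probe set (SNOWBALL_013457) had values of 8.44, 8.57, 8.79, 8.95, 9.21 and 9.28 in pigs labelled low RFI, against 7.94, 8.05, 8.27, 8.41, 8.42 and 8.86 in pigs labelled high RFI. Each of the 6 pigs labelled low RFI exceeded the high RFI mean, and 5 of the 6 pigs labelled high RFI lay below the lowest pig labelled low RFI, P317 being the exception. Means were 8.87 ± 0.34 in pigs labelled low RFI, against 8.33 ± 0.32 in pigs labelled high RFI (SD, n = 6 each), a difference of 0.55 (SE 0.17, 95% interval 0.17 to 0.92, limma q = 0.513). When the probe sets of lowest and highest SD were left out, the same difference had a SE of 0.15 and a limma q of 0.0928, and was called. It was then 1 of 10 macrophage probe sets tested, against 2.66% of 35844 probe sets in all. The filter selects on the SD inside each class, which also enters the test. Calls made with it are thus not independent of the filter. Without P317, the difference was 0.65 (limma q = 0.173, all probe sets). MRC1 was called there too, as 1 of 2 probe sets called among the 12 of the markers, against 2.81% of all probe sets.

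A second MRC1 probe set, SNOWBALL_038206, did not follow the first. It averaged 4.34 ± 0.27 in pigs labelled low RFI, against 4.45 ± 0.17 in pigs labelled high RFI (SD, n = 6 each), a difference of -0.11 (limma q = 0.777), and over the 12 pigs its Pearson r with the brightest one was -0.05 (permutation p = 0.885). The third, SNOWBALL_013513, was dim, with a mean of 1.42. It lay between 0.61 and 1.81 in all pigs but P309, a male labelled low RFI with 3.54. Without P317, the differences of these probe sets were -0.094 and 0.19. The class result for MRC1 thus rests on 1 of its 3 probe sets. The others, with means of 4.40 and 1.42, lay within the range of background signal (under 7.48).

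CD163 varied most between pigs among the brightest probe sets of the 7 genes, with an SD of 0.60 over the 12 pigs. Its brightest probe set (SNOWBALL_023197) had 6.22, 6.65, 6.80, 7.34, 7.53 and 7.93 in pigs labelled low RFI, against 6.00, 6.15, 6.35, 6.35, 6.52 and 7.0 in pigs labelled high RFI. The 3 highest pigs were labelled low RFI, but P309 of that class lay below most of the other class, and P317 was again the highest pig labelled high RFI. Means were 7.08 ± 0.63 in pigs labelled low RFI, against 6.40 ± 0.35 in pigs labelled high RFI (SD, n = 6 each), with a difference of 0.68 (SE 0.26, 95% interval 0.13 to 1.23, limma q = 0.540). The filter on SD, rebuilt here from the study's methods, removed this probe set, so that it had no test there. Its SD in the pigs labelled low RFI was at percentile 96.6 of all probe sets. Without P317, the difference was 0.80 and was called (limma q = 0.283). The other CD163 probe set (SNOWBALL_034886) averaged 1.69 ± 0.27 in pigs labelled low RFI, against 1.74 ± 0.29 in pigs labelled high RFI (SD, n = 6 each), and without P317 the difference was -0.11.

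Both probe sets of VSIG4 were bright and followed each other over the 12 pigs (Pearson r = 0.81, Spearman rho = 0.85, permutation p = 0.00176 and 0.00085, adjusted p = 0.0106 and 0.0051 over 6 pairs of probe sets of the same gene). The brighter, SNOWBALL_020322, had 7.69, 7.79, 7.85, 7.93, 8.09 and 8.10 in pigs labelled low RFI, against 7.34, 7.37, 7.56, 7.80, 7.81 and 8.09 in pigs labelled high RFI. The ranges overlapped, although each of the 6 pigs labelled low RFI exceeded the high RFI mean. The difference was 0.25 (SE 0.13, 95% interval -0.03 to 0.53, limma q = 0.630), and 0.27 (SE 0.18, limma q = 0.678) through SNOWBALL_023437. P317 was the highest pig labelled high RFI in both, with 8.09 and 8.06. Without it the differences were 0.33 and 0.38, with a limma q of 0.329 and 0.416 over all probe sets. Leaving out each pig in turn gave 0.18 (without P304) to 0.33 for the brighter probe set and 0.15 (without P308) to 0.38 for the other. With the filter on SD as well, an alternative chosen after seeing the data, both were called (limma q = 0.213 and 0.189), as 2 of the 3 macrophage probe sets called of 10 and against 9.92% of all probe sets.

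The chains of C1q showed hardly any gap between the classes. C1QC (SNOWBALL_008697) had 10.98, 11.02, 11.04, 11.04, 11.07 and 11.32 in pigs labelled low RFI, against 10.64, 11.04, 11.07, 11.11, 11.12 and 11.19 in pigs labelled high RFI. Apart from P308 at the top and P301 at the bottom, the other 10 pigs lay between 10.98 and 11.19. Means were 11.08 ± 0.12 in pigs labelled low RFI, against 11.03 ± 0.20 in pigs labelled high RFI (SD, n = 6 each), with a difference of 0.05 (95% interval -0.17 to 0.27, limma q = 0.825).

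C1QA (SNOWBALL_009028) had 10.03, 10.29, 10.29, 10.30, 10.36 and 10.82 in pigs labelled low RFI, against 9.92, 10.18, 10.31, 10.31, 10.43 and 10.49 in pigs labelled high RFI. P308 was again the highest and P301 the lowest. The difference was 0.07 (95% interval -0.21 to 0.36, limma q = 0.816). A second C1QA probe set, SNOWBALL_028724, was dim at 2.20 ± 0.18 in pigs labelled low RFI, against 2.23 ± 0.20 in pigs labelled high RFI (SD, n = 6 each), and without P317 the difference was -0.051.

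CD14 (SNOWBALL_000658) had 9.97, 10.14, 10.16, 10.24, 10.25 and 10.31 in pigs labelled low RFI, against 9.92, 10.09, 10.17, 10.33, 10.34 and 10.46 in pigs labelled high RFI. It was among the steadiest of the markers, with a class difference of -0.04 (95% interval -0.26 to 0.18, limma q = 0.835). MARCO (SNOWBALL_017732) averaged 4.26 ± 0.37 in pigs labelled low RFI, against 4.26 ± 0.35 in pigs labelled high RFI (SD, n = 6 each), with a 95% interval of the difference from -0.40 to 0.40. Without P317, the class differences were 0.08 for C1QC, 0.11 for C1QA, -0.02 for CD14 and -0.043 for MARCO, and none of them was called.

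**Figure D2:**
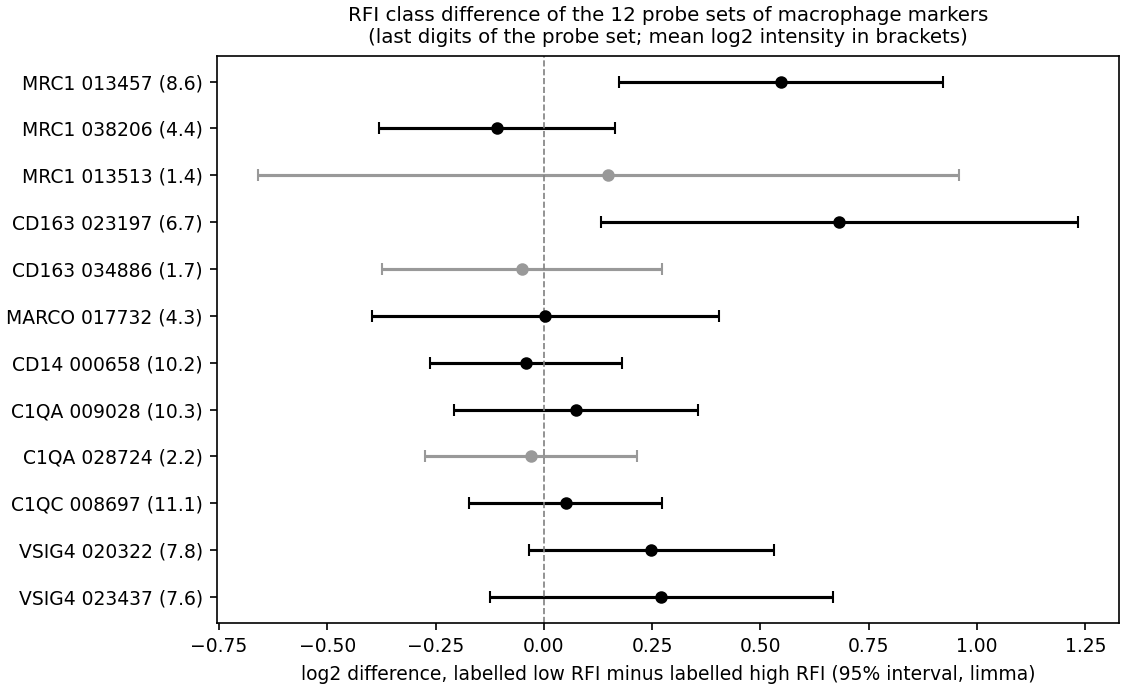
Difference in log2 intensity, low RFI minus high RFI by the labels, for the 12 probe sets of macrophage markers, with 95% intervals from limma and the mean log2 intensity of the probe set in brackets. Grey marks the 3 probe sets below the median of all probe sets. The intervals of the brightest probe sets of MRC1 (0.17 to 0.92) and CD163 (0.13 to 1.23) lie above 0 and all others include 0.

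Whether the gap of MRC1 or CD163 was wider than that of the other markers was examined within pigs, after their values had been seen, by an exact permutation test over all 924 splits of the pigs for each of 21 pairs of markers. The class difference of MRC1 exceeded that of CD14 by 0.59 (two-sided exact p = 0.0195) and that of C1QC by 0.50 (exact p = 0.0325). That of CD163 exceeded the difference of CD14 by 0.72 (exact p = 0.0216). In all, 5 of 21 pairs had an exact p under 0.05 and 0 did after Benjamini-Hochberg adjustment, where these 3 pairs had an adjusted p of 0.175. The markers were thus not shown to differ from each other in their class difference.

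The background of GC-rich probe sets was read beside these differences. Over the 12 pigs its Pearson r was -0.64 with MRC1, -0.62 with CD163 and -0.70 with VSIG4 (rho -0.70, -0.66 and -0.66, permutation p of r 0.0281, 0.0334 and 0.0131, of rho 0.0144, 0.0247 and 0.0223). After adjustment over 77 relations of markers with this background or with cell type lists, the p of r was 0.322, 0.322 and 0.270. Without the 2 pigs farthest from its median (P323 and P317), r was -0.49, -0.55 and -0.55, and after centring on class and sex it was -0.34, -0.45 and -0.54. With this background as a covariate, the class difference was 0.36 for MRC1, 0.39 for CD163 and 0.056 for the brighter VSIG4 probe set (limma q = 0.992 in each). In that fit, 0% of all probe sets were called at q under 0.30, with 0 of 12 for the markers, and 4.77% had an unadjusted p under 0.05, again with 0 of 12 for the markers. The part of this background in the class result was not tested.

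MARCO was the one marker that separated the sexes. It had 3.62, 3.78, 4.03, 4.09, 4.21 and 4.27 in females, against 4.34, 4.37, 4.43, 4.46, 4.75 and 4.75 in males, so that every female lay below every male. Of all probe sets, 0.339% separated the sexes in this way in either direction. Means were 4.0 ± 0.25 in females, against 4.52 ± 0.18 in males (SD, n = 6 each), with a difference of -0.52 (SE 0.13, 95% interval -0.80 to -0.24, limma q = 0.514). It was not called at q under 0.30, as was the case for all of the macrophage probe sets (0 of 12, against 0.0397% of all probe sets), and it was the only one with an unadjusted p under 0.05 (1 of 12, against 6.11%). Leaving out each pig in turn gave differences from -0.58 to -0.43. Without P317 the difference was -0.52.

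The class differences of MRC1 and CD163 had the same sign in both sexes. For MRC1, the difference between the classes was 0.44 in females and 0.66 in males, and for CD163 it was 0.84 in females and 0.53 in males. VSIG4 had 0.19 in females and 0.30 in males. The interaction of sex and RFI class was not called for any macrophage probe set (0 of 12 by limma, also at an unadjusted p under 0.05, against 0% and 4.44% of all probe sets).

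Across the 12 pigs, some of the markers varied together. The median Pearson r over the 21 pairs of the 7 genes was 0.33, and 16 of 21 were positive. When the 2 pigs farthest from the median of the first gene were left out of each pair, the median was 0.0645 and 12 of 21 were positive. C1QA and C1QC were the closest pair, with r = 0.85 and rho = 0.74 (permutation p = 0.00198 and 0.00805, adjusted over 21 pairs 0.0416 and 0.111). Their r was 0.89 within pigs labelled low RFI and 0.91 within pigs labelled high RFI, with 6 pigs in each, and 0.87 after centring on class and sex. Without P308 and P301, the pigs farthest from the median of C1QA, r was 0.57, so that a good part of the relation lay in these pigs. This was the only pair with an adjusted p under 0.05 (1 of 21 by r, 0 of 21 by rho), and 6 of 21 had an unadjusted p of r under 0.05. The same shares were not computed for pairs of other genes, so these counts do not show co-variation particular to the markers.

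MRC1, CD163 and VSIG4, here called a trio, had the next highest values of r, but none of their pairs had an adjusted p under 0.05. Each also had a negative r with the GC-rich background, as given above. The part of that background in these relations was not tested. Pearson's r was 0.72 for MRC1 with CD163, 0.73 for MRC1 with VSIG4 and 0.71 for CD163 with VSIG4 (permutation p 0.00741, 0.00755 and 0.0106, adjusted p 0.0529, 0.0529 and 0.0556), and rho was 0.65, 0.69 and 0.72 (permutation p 0.0249, 0.0159 and 0.0106, adjusted p 0.131, 0.111 and 0.111). They are also the 3 genes with the widest class differences among the brightest probe sets, and r after centring on class and sex was 0.58, 0.59 and 0.61, a size that other pairs also reached. Within classes, r for MRC1 with CD163 was 0.53 in pigs labelled low RFI and 0.64 in pigs labelled high RFI. Leaving out the 2 pigs farthest from the median of the first gene gave 0.49 and 0.57 for the pairs with MRC1 and 0.78 for CD163 with VSIG4. Without P317, the 3 values were 0.72, 0.72 and 0.71.

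**Figure D3:**
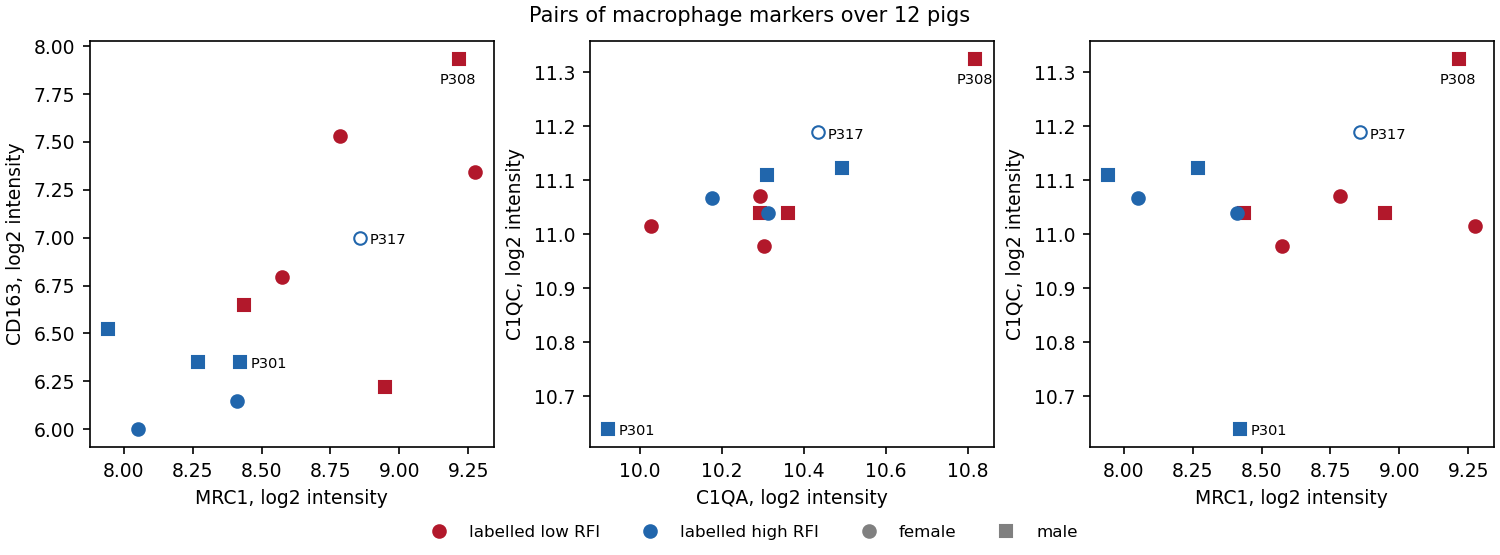
Log2 intensities of 3 pairs of macrophage markers in the 12 pigs, with pigs labelled low RFI in red, pigs labelled high RFI in blue, circles for females, squares for males and an open circle for P317. Pearson r was 0.72 for MRC1 with CD163, 0.85 for C1QA with C1QC, where P308 and P301 lie at the ends, and 0.25 for MRC1 with C1QC. Of these, only C1QA with C1QC had an adjusted permutation p of r under 0.05.

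Over the 12 pigs, MRC1 had low values of r with the C1q chains and with CD14. Its r was 0.21 with C1QA, 0.25 with C1QC and 0.01 with CD14 (rho -0.01, -0.01 and -0.06, permutation p of r 0.530, 0.449 and 0.966, of rho 0.974, 0.97 and 0.870, smallest adjusted p 0.589). Within pigs labelled low RFI, these r were 0.09, 0.49 and 0.72, and within pigs labelled high RFI 0.17, 0.0068 and -0.22, with 6 pigs in each. CD14 had r = 0.59 with C1QC (permutation p = 0.0430, adjusted p = 0.173, rho = 0.50 with permutation p = 0.10), which was 0.85 after centring on class and sex and 0.31 without P301 and P302. VSIG4 with C1QC had r = 0.57 (permutation p = 0.0494, adjusted p = 0.173) but rho = 0.21 (permutation p = 0.511), and r was -0.00052 without P301 and P308, so that this relation rested on these pigs. MARCO had a negative r with 5 of the 6 other markers, from -0.42 with CD14 to -0.11 with CD163, and 0.17 with C1QA. None of these 6 had an unadjusted permutation p of r under 0.05, the smallest being 0.175.

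**Figure D4:**
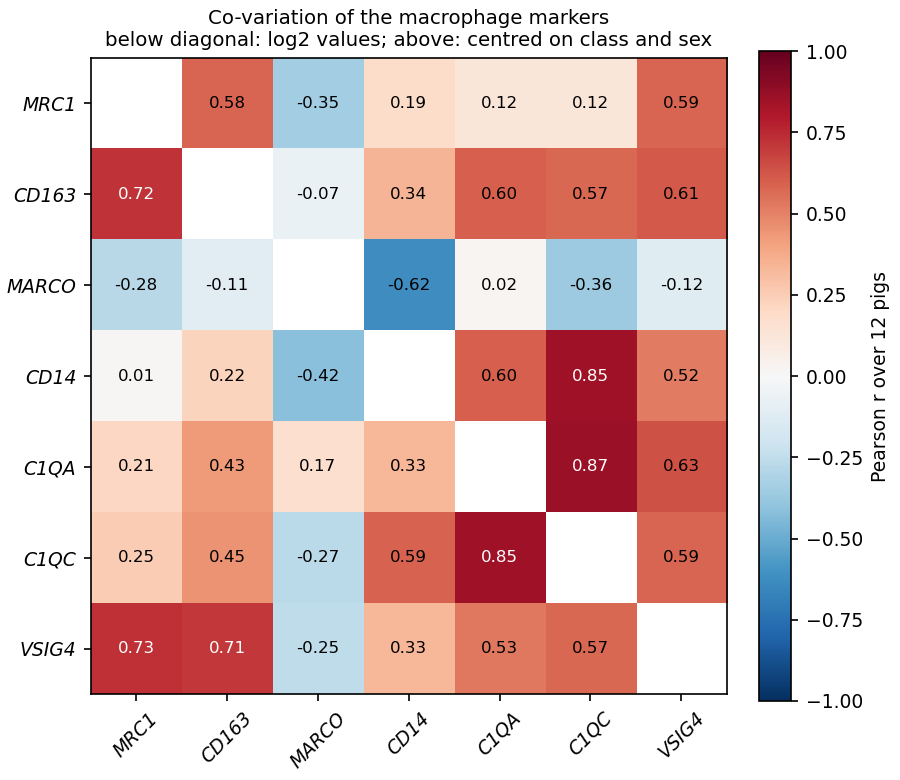
Pearson r over the 12 pigs for all pairs of the 7 macrophage markers, from log2 values below the diagonal and from values centred on RFI class and sex above it. Before centring, C1QA with C1QC (0.85) and the trio of MRC1, CD163 and VSIG4 (0.71 to 0.73) have the highest values. After centring, C1QA with C1QC (0.87) and CD14 with C1QC (0.85) do, the trio is at 0.58 to 0.61 among several other pairs, and MARCO is below 0 with most others.

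Among 10323 other named genes with a brightest probe set above the median, the genes nearest to each marker over the 12 pigs were found by Pearson r, as a description with no test, since they were picked as the highest of many. For MRC1 these were NFE2L2, a regulator of the antioxidant response (r = 0.94), FRMD4B (0.93) and the glutamate transporter SLC1A2 (0.92). For C1QA and C1QC the nearest gene was the same: CFP, which encodes properdin, the stabilizer of the alternative complement pathway, with r = 0.91 and 0.89. C1QA had rank 3 among the genes nearest to C1QC, and C1QC had rank 4 for C1QA. CD163 was nearest to CTTNBP2NL, the coagulation factor gene F5 and the peptidase gene TPP2 (0.87 each), and VSIG4 to CCDC47, GPATCH8 and REPS2 (0.87 to 0.90). The genes nearest to CD14 were SLC9A8, TIAF1 and LSM10 (0.89 to 0.91), and those nearest to MARCO were EXD2, TNNT1 and PDX1 (0.86 to 0.93). Among all candidates, CD163 and VSIG4 had ranks 351 and 328 for MRC1, while MRC1 had rank 75 for CD163 and rank 98 for VSIG4.

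Of 25 further Kupffer cell and macrophage genes, 19 were named on the array, and 3 had an unadjusted p under 0.05 (limma), all higher in pigs labelled low RFI, against 3.79% of all probe sets in that direction. SLC40A1, which encodes ferroportin and exports iron, had 10.97 ± 0.13 in pigs labelled low RFI, against 10.51 ± 0.36 in pigs labelled high RFI (SD, n = 6 each) (difference 0.46, limma q = 0.513). It was called with the rebuilt filter on SD (limma q = 0.155). HPGD, which inactivates prostaglandins, differed by 0.66 (limma q = 0.519), and CTSS, a lysosomal protease of antigen-presenting cells, by 0.30 (limma q = 0.580). The other 16 included CD5L, made by tissue macrophages, with 10.36 ± 0.14 in pigs labelled low RFI, against 10.32 ± 0.17 in pigs labelled high RFI (SD, n = 6 each), and TIMD4, a receptor of resident macrophages for dying cells, with a difference of 0.23 (95% interval -0.13 to 0.58). Over the 19 genes, 11 had a higher mean in pigs labelled low RFI and 8 a lower one, with a median difference of 0.0056, against -0.02 over the brightest probe sets of all named genes and 0.07 over the 7 markers. Without P317, SLC40A1, HPGD and CTSS were called with all probe sets tested (limma q 0.103, 0.243 and 0.273), as were 2 of the 12 macrophage probe sets and 2.81% of all.

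Of 20 partner genes of these receptors and of complement, 19 were named, and 4 had an unadjusted p under 0.05, all higher in pigs labelled low RFI, against 3.79% of all probe sets in that direction. TLR4, the lipopolysaccharide receptor that CD14 serves, had 5.80 ± 0.33 in pigs labelled low RFI, against 5.32 ± 0.27 in pigs labelled high RFI (SD, n = 6 each) (difference 0.48, limma q = 0.519). It was called with the filter on SD (limma q = 0.148) and without P317 (limma q = 0.281). The TLR4 difference was 0.097 in females and 0.86 in males, and the interaction of sex and class was not called (limma q = 0.962), although its unadjusted p was under 0.05, as in 4.44% of all probe sets. Its partner LY96 differed by 0.27 (limma q = 0.575), the scavenger receptor CD36 by 0.33 (limma q = 0.519) and CFI, the protease that inactivates C3b, by 0.26 (limma q = 0.589), with CD36 and LY96 dim at means of 2.40 to 3.22. Without P317, LY96, CD36 and CFI differed by 0.23, 0.34 and 0.33 and were not called with all probe sets tested. The ligands of the macrophage growth factor receptor CSF1R showed no such gap: CSF1 differed by -0.20 (95% interval -0.55 to 0.15) and IL34 by -0.07 (95% interval -0.27 to 0.13). C1R and C1S, the proteases that bind C1q, differed by 0.03 and 0.05 (95% intervals -0.16 to 0.21 and -0.12 to 0.23). With the GC-rich background as a covariate, the difference was 0.20 for SLC40A1 and 0.37 for TLR4 (limma q = 0.992 in each).

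**Figure D5:**
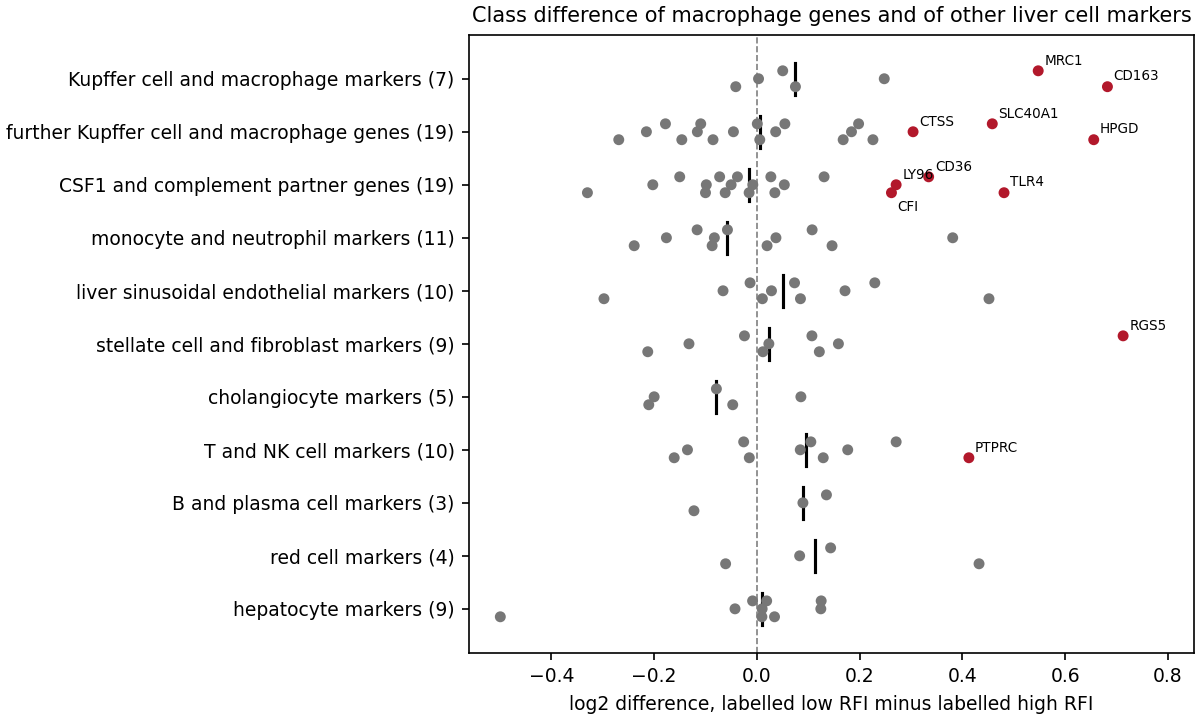
Difference in log2 intensity, low RFI minus high RFI by the labels, for genes of macrophages, their partners and other liver cell types, each through its brightest probe set, with the number of genes in brackets. Red points have an unadjusted limma p under 0.05 and are named, grey points do not, and black lines are the medians of the lists. The named points all lie right of 0, with 2 of 7 markers among them, and the medians lie between -0.08 and 0.11.

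Markers of other cell types that contribute to whole liver were read beside these genes. None of the 10 sinusoidal endothelial markers named had an unadjusted p under 0.05, against 7.29% of all probe sets. Among them, LYVE1 differed by 0.45 (limma q = 0.673), KDR by 0.23 (limma q = 0.654) and STAB2 by 0.17 (limma q = 0.664). Their mean level was 7.25 to 7.86 in pigs labelled low RFI and 7.29 to 7.80 in pigs labelled high RFI. Over the pigs, this level had r = 0.70 and rho = 0.76 with MRC1 (permutation p = 0.010 and 0.00644, adjusted over the 77 relations 0.270 and 0.368), 0.83 within pigs labelled low RFI, 0.77 within pigs labelled high RFI, 0.83 after centring on class and sex, and 0.86 without P307 and P304, the pigs farthest from the median of that level. With CD163 it had r = 0.50 and with C1QC 0.13 (permutation p = 0.0903 and 0.655, rho 0.43 and 0.17 with permutation p = 0.168 and 0.589, adjusted p of r 0.491 and 0.840). The part of endothelial cells in the MRC1 result was not tested.

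Markers of monocytes and neutrophils had a mean level of 4.14 to 4.58 in pigs labelled low RFI and 4.25 to 4.49 in pigs labelled high RFI, with 0 of 11 at an unadjusted p under 0.05 (with differences of -0.24 for MPO, 0.38 for LYZ and -0.083 for FCN1, those of lowest p), and S100A8 dim at 2.28. This level had r = -0.63 and rho = -0.58 with CD163 (permutation p = 0.0302 and 0.0528, adjusted p 0.322 and 0.452), -0.76 within pigs labelled low RFI, -0.74 within pigs labelled high RFI, and -0.54 without P323 and P309. CD14 had its highest relation with red cell markers, at r = 0.77 and rho = 0.73 (permutation p = 0.00318 and 0.00993, adjusted p 0.245 and 0.368), with 0.87 within pigs labelled low RFI, 0.81 within pigs labelled high RFI, and 0.75 without P318 and P301. None of the 77 relations passed the adjustment (0 of 77 by r, with 9 at an unadjusted p under 0.05). Of those 9, 3 were with lists of macrophage or partner genes. VSIG4 and MRC1 had r = 0.67 and 0.59 with the further macrophage genes (rho 0.59 and 0.38, permutation p of r 0.0190 and 0.0453, of rho 0.0493 and 0.228, adjusted p of r 0.292 and 0.388), and r was 0.50 and 0.25 without P302 and P304. C1QA had r = 0.72 and rho = 0.59 with the partner genes (permutation p = 0.0140 and 0.0462, adjusted p 0.270 and 0.452), and r was 0.26 without P323 and P308. Red cell markers had a mean level of 5.66 to 6.68 in pigs labelled low RFI and 5.36 to 6.54 in pigs labelled high RFI, with HBB, a chain of haemoglobin, at 10.89 ± 0.51 in the low RFI class, against 10.74 ± 0.66 in the high RFI class (SD, n = 6 each).

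In the other lists, 1 of 9 stellate cell and fibroblast markers and 1 of 10 T and NK cell markers had an unadjusted p under 0.05, against 7.29% of all probe sets. These were RGS5, a regulator of G protein signalling in pericytes, with a difference of 0.71 (limma q = 0.586), and PTPRC, the leukocyte antigen CD45, which macrophages carry as well, with 0.41 (limma q = 0.598). Both had a higher mean in pigs labelled low RFI. Without P317, RGS5 differed by 0.96 and was called (limma q = 0.197), and PTPRC differed by 0.42 and was not. By sex, RGS5 differed by 0.17 in females and 1.26 in males, and PTPRC by -0.13 in females and 0.95 in males, with no call for the interaction (limma q = 0.962 in each), although its unadjusted p was under 0.05 for PTPRC. The next genes of these lists by p were RELN (0.12) and COL1A1 (-0.21), and CD4 (-0.14) and CD3D (0.27). Cholangiocyte, B and plasma cell, red cell and hepatocyte markers had 0 of 5, 0 of 3, 0 of 4 and 0 of 9 at an unadjusted p under 0.05. HNF4A, a transcription factor of hepatocytes, had a difference of -0.50 (95% interval -1.01 to 0.01, limma q = 0.605), with 0.046 in females and -1.04 in males (interaction limma q = 0.962, unadjusted p under 0.05). APOB and CPS1 differed by 0.13 and 0.12. Of lowest p in the remaining lists were SOX9 (-0.20), KRT19 (-0.21) and CFTR (0.086) of cholangiocytes, CD79A (-0.12), MS4A1 (0.090) and CD79B (0.14) of B cells, and ALAS2 (0.43), SLC4A1 (0.083) and HBB (0.14) of red cells. The part of such cells in the results for the macrophage markers was not tested.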

How the data were processed

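Liver RNA of 12 pigs was hybridized to Affymetrix snowball arrays, 1 array per pig and none pooled. The extraction and labelling kits differ between the labels and the study's methods. Per the labels and methods, arrays were read by GCOS 1.1.1. The authors applied RMA and deposited log2 intensities for 47845 probe sets, which were used as given. Pigs were grouped by the RFI class and sex of their labels. Gene names are those of the platform annotation, with a symbol for 26426 probe sets and 13755 genes. Where a gene had several probe sets, that of highest mean stood for it in lists and correlations. The shares given beside the lists are over all probe sets, many of them dimmer, so the 2 sets are unlike. Tested alone, 0.941% of probe sets above the median were called at q under 0.30, against 0.0314% of all.

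The limma package (3.58.1, under R 4.3.3) was run on all probe sets with a term for RFI class alone. For sex, a term for class was kept in the model, and a further model held their interaction. Storey q-values were taken over all probe sets, with lambda from 0.05 to 0.90 in steps of 0.05, and calls were made at q under 0.30. As an alternative, the methods' filter on SD was applied, which drops the 10% of probe sets that vary least over the 12 pigs and the 10% that vary most inside a class. This filter was rebuilt from its description and did not keep the same number of probe sets as the study reports. The fit was tested on simulated data with 200 changed probe sets, independent noise for each probe set and calls at q under 0.05. As these settings differ from those of the data, the simulation gives no support for calls at q under 0.30. Correlations over pigs were tested by two-sided permutation with 100000 resamples and Benjamini-Hochberg adjustment. Arrays have no depth, and their number limits the precision. Nothing in the labels ties pigs to litters, and p-values take the 12 pigs as independent.

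The markers and gene lists were chosen with earlier results of these data known. All probe sets of the markers were named, and from each other list the genes called with or without the filter on SD, and otherwise up to 3 of lowest p. For each marker, the 3 nearest genes by Pearson r were named. Named outside this rule, after their values were seen, were HPGD, CTSS, CD5L, TIMD4, CD36, LY96, CFI, CSF1, IL34, C1R, C1S and S100A8. Alternatives changed the filter, covariates, variance model, array weights, scaling, adjustment and pigs used. Raw intensities and RT-qPCR values were not used here.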

Additional observations from a re-analysis of the deposited data

Results flagged for a closer look

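Within each class of 6 pigs, the highest or lowest pig was compared with the rest by Dixon's test in all 12 probe sets. Of these 24 groups, 3 held a pig far from the others, where chance alone gives about 1 in 20. In C1QC, P308, a male labelled low RFI, had 11.32, with the next pig of its class at 11.07. In the same gene, P301, a male labelled high RFI, had 10.64, with the next pig of its class at 11.04. P308 was also the highest pig in CD163 (7.93) and C1QA (10.82), and P301 was the lowest in C1QA (9.92) and CD14 (9.92). In the dim MRC1 probe set SNOWBALL_013513, P309, a male labelled low RFI, had 3.54, with the next pig of its class at 1.43, while the brightest MRC1 probe set had 8.95 in that pig and did not stand apart. The cause of these values was not tested.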

How the results depend on the processing

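The count of macrophage probe sets called between the classes was 0 in 9 of 10 alternatives to the test on all probe sets that kept every pig of the classes or sexes used. The exception was the rebuilt filter on SD, with 1 (MRC1). It was 0 to 2 when 1 pig was left out, the 2 being MRC1 and CD163 without P317. With both that filter and P317 left out, an alternative chosen after seeing the data, it was 3 of 10 (MRC1 with a limma q of 0.00649 and both VSIG4 probe sets with 0.213 and 0.189), against 9.92% of all probe sets, and PTPRC, RGS5, CD163 and HPGD had no test there. Series-wide, the count called was 15 with all probe sets, 952 with the filter, 1345 without P317 and 3543 with both changes. CD163 and MRC1 kept an unadjusted limma p under 0.05 when any 1 pig was left out, with differences from 0.51 to 0.85 and from 0.47 to 0.65. Over all alternatives, limma q ran from 0.00649 to 0.999 for MRC1, from 0.283 to 0.999 for CD163 and from 0.213 to 0.999 for the brighter VSIG4 probe set. No call was made for sex or its interaction with class under any alternative. The median r over marker pairs was 0.0645 when the 2 pigs farthest from the median of the first gene were left out of each pair, an alternative chosen after seeing the data. It lay between 0.14 and 0.52 under the other alternatives, and between 0.17 and 0.47 when 1 pig was left out. Its jackknife SE was 0.24.

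Small differences changed sign. With the GC-rich background as a covariate, C1QC had -0.033, VSIG4 SNOWBALL_023437 had -0.014 and CD163 SNOWBALL_034886 had 0.15. In males only, MARCO had -0.062, C1QA SNOWBALL_028724 had 0.0073 and CD163 SNOWBALL_034886 had 0.10. In females only, CD14 had 0.039, C1QC -0.076, C1QA -0.099, MRC1 SNOWBALL_013513 -0.53 and PTPRC -0.13. MARCO had -0.0025 with array weights and -0.043 with the filter and without P317. Leaving out 1 pig gave -0.094 to 0.13 for MARCO, -0.100 to 0.0077 for CD14, -0.027 to 0.082 for C1QC, -0.019 to 0.14 for C1QA, -0.079 to 0.038 for SNOWBALL_028724, -0.15 to 0.041 for SNOWBALL_034886 and -0.26 to 0.32 for SNOWBALL_013513. The cause was not tested. No paired analysis was possible because the labels carry neither litter nor sibling, and the replicate numbers do not link pigs of the 2 classes.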
